A study of Rattus norvegicus with 2 samples.

Results

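The 6 genes described here are the mitochondrially encoded subunits of cytochrome c oxidase (Co1, Co2 and Co3), of the cytochrome bc1 complex (cytochrome b, Cytb) and of ATP synthase (Atp6 and Atp8). They were chosen as a list of Ensembl gene IDs, by identity and not by measured value, though earlier results of these data were known. All 6 were found among the 20174 genes of the rat oligonucleotide chip, with 1 spot each. The IDs were ENSRNOG00000034234 for Co1, ENSRNOG00000030371 for Co2, ENSRNOG00000030700 for Co3, ENSRNOG00000031766 for Cytb, ENSRNOG00000031979 for Atp6 and ENSRNOG00000033299 for Atp8. The array lists genes by ID only, so the gene names are those that came with the list. The probes and the coordinates of these genes were not analysed here.

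RNA was taken from left ventricular (LV) tissue of male Dahl salt-sensitive (DS) rats at the stage of heart failure and pooled from 3 rats per group. The control group, NS (−), ate 0.3% NaCl without chaetocin, the HF group, HS (−), ate 8% NaCl without chaetocin, and the treatment group, HS (ch+), ate 8% NaCl and received chaetocin, an inhibitor of histone H3K9 methyltransferases, at 0.25 mg/kg intraperitoneally 2 times per week between 6 and 13 weeks of age. Array 1 carried HS (−) RNA in the red dye Cy5 beside NS (−) RNA in the green dye Cy3, and array 2 carried HS (−) RNA in Cy5 beside HS (ch+) RNA in Cy3. With 1 pool per group, 1 array per comparison and no dye swap, no test across rats exists and no p-value is given, and dye and pool cannot be told apart.

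The mitochondrial genome encodes a small set of core subunits of the respiratory chain, and every other subunit is made from nuclear genes and imported. Complex III, which holds Cytb, passes electrons to cytochrome c, and complex IV, whose catalytic core is formed by Co1, Co2 and Co3, passes them on to oxygen. Atp6 and Atp8 sit in the membrane part of ATP synthase, which uses the resulting proton gradient to make ATP. The mitochondrial genes are copied as long transcripts that are then cut into single messages, and Atp8 and Atp6 share 1 message. Heart muscle is rich in mitochondria, and these messages are among the most abundant RNAs in it.

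In these arrays the 6 genes did not share the pattern that the study searched for, which was a low level in HS (−) raised again in HS (ch+). Relative to NS (−), HS (−) levels of the 6 genes lay between 0.88-fold and 1.36-fold, with a median of 1.13-fold. Relative to HS (−), HS (ch+) levels lay between 0.63-fold and 0.79-fold, with a median of 0.71-fold, and all 6 were below 1. The values of this second comparison depended on how array 2 was centred, since before centring the median of the same 6 genes was 0.92-fold. These values are ratios of spot intensities within an array after blank subtraction, centred on the median of the array.

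The only repeated measurement was the HS (−) pool, which was read in Cy5 on both arrays. Genes were tested where both arrays gave a ratio and an HS (−) reading of 100 or more after blank subtraction, which left 4127 genes. Over these, the log2 difference between these readings had an SD of 0.16 (1.12-fold). This SD is used below as a yardstick, since the technical spread of a Cy3/Cy5 ratio within an array was not measured. It covers hybridization, and it covers labelling only if the RNA was labelled separately for each array, which is not stated. It does not cover the difference between the dyes or between rats. All 6 genes passed this minimum. Array 2 read HS (−) higher by a median log2 of 0.15 over all these genes and by 0.11 over the 6 genes.

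All 6 genes lay near the top of the range of the scanner. Their 24 readings ran from 36539 to 54540 intensity units, or from 55.8% to 83.2% of the maximum, and 0 were saturated. In each of the 4 channels the 6 spots ranked between 1 and 15 among all genes, which describes the spots and not the amounts of RNA. The scans were made at 3 gains, and every one of these readings exceeded what the second gain could record (31531 to 34151 units by channel), so each rests on the lowest gain. The background beside the spots was 23.9% to 52.4% of the spot brightness, whereas the blank spots read 24.8 to 51.2 units. Whether brightness near the maximum compressed the ratios was not tested.

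**Figure D1:**
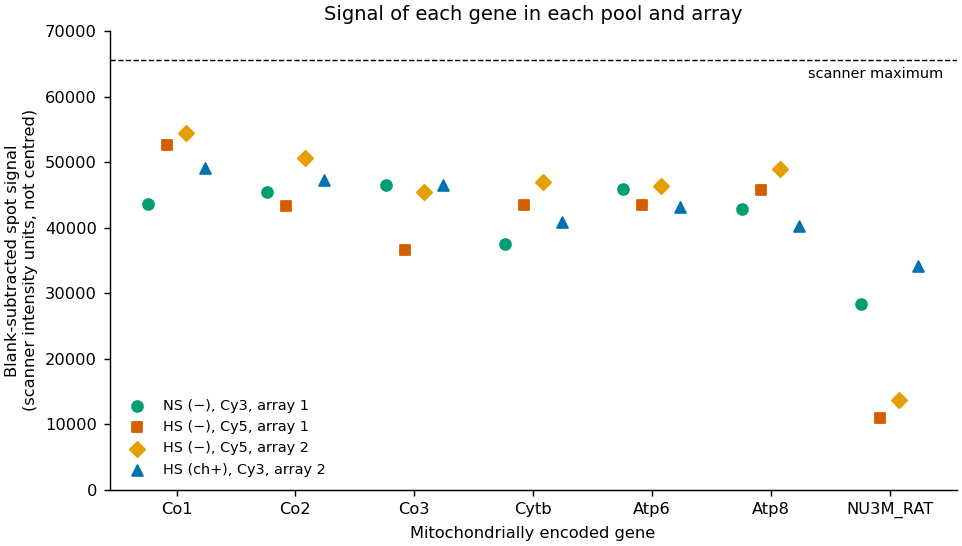
Blank-subtracted signal in scanner intensity units (linear axis from 0, not centred) of the 6 genes and of NU3M_RAT in each pool and array, 1 point per reading with no error bar because each is a single spot; the dashed line marks the scanner maximum. All points of the 6 genes lie between 36514 (Co3, HS (−), array 1) and 54515 (Co1, HS (−), array 2), whereas NU3M_RAT lies lower in both HS (−) readings than in NS (−) and HS (ch+).

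Co1, the catalytic subunit of cytochrome c oxidase that carries its haem groups, read 43674 in NS (−) and 52642 in HS (−) on array 1, and 54540 in HS (−) and 49210 in HS (ch+) on array 2. Both HS (−) readings were thus higher than the readings of the other pools beside them. After centring, Co1 was 1.36-fold in HS (−) relative to NS (−) (log2 0.44, or 2.75 SD of the repeated reading) and 0.695-fold in HS (ch+) relative to HS (−) (log2 −0.53, or −3.29 SD). The 2 steps nearly cancelled, and HS (ch+) relative to NS (−) was 0.942-fold (log2 −0.09), which lies within 1 SD. The sign of that last value is not settled, since 8 of 9 other ways of processing put it above 0. The remaining way, the deposited table, repeats the main processing.

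Co2, the subunit that takes electrons from cytochrome c, read 45537 in NS (−) and 43350 in HS (−) on array 1, and 50716 in HS (−) and 47319 in HS (ch+) on array 2. Before centring its array 1 ratio was therefore slightly below 1, and after centring it was 1.07-fold (log2 0.10), within 1 SD either way. Relative to HS (−), Co2 was 0.718-fold in HS (ch+) (log2 −0.48, −2.99 SD). Relative to NS (−), it was 0.769-fold in HS (ch+) (log2 −0.38).

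Co3, the third core subunit of the enzyme, read 46599 in NS (−) and 36539 in HS (−) on array 1, and 45442 in HS (−) and 46506 in HS (ch+) on array 2. It was the 1 gene of the 6 with a centred HS (−)/NS (−) ratio below 1, at 0.882-fold (log2 −0.18, −1.14 SD), although with loess the value was 0.01 and without background subtraction 0.24. Its HS (−) readings differed between the arrays by a log2 of 0.31, against a median of 0.15 over all genes, and with the HS (−) reading of array 2 in place of that of array 1 its HS (−)/NS (−) value was −0.01. In HS (ch+) relative to HS (−), Co3 was 0.788-fold (log2 −0.34, −2.15 SD), the smallest difference of the 6, and without centring the sign turned to 0.03. In HS (ch+) relative to NS (−) it was 0.695-fold (log2 −0.53).

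Cytb, the only subunit of complex III that mitochondria encode themselves, read 37608 in NS (−) and 43544 in HS (−) on array 1, and 47068 in HS (−) and 40885 in HS (ch+) on array 2. Like Co1, it was brighter in HS (−) than in the pool beside it on both arrays. Cytb was 1.30-fold in HS (−) relative to NS (−) (log2 0.38, 2.38 SD) and 0.669-fold in HS (ch+) relative to HS (−) (log2 −0.58, −3.63 SD). In HS (ch+) relative to NS (−) it was 0.871-fold (log2 −0.20), and this sign turned under 4 of 9 other settings.

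Atp6, the membrane subunit of ATP synthase through which protons pass, read 45900 in NS (−) and 43526 in HS (−) on array 1, and 46333 in HS (−) and 43175 in HS (ch+) on array 2. Its centred values were close to those of Co2: 1.07-fold in HS (−) relative to NS (−) (log2 0.09, within 1 SD), 0.717-fold in HS (ch+) relative to HS (−) (log2 −0.48, −3.0 SD), and 0.765-fold in HS (ch+) relative to NS (−) (log2 −0.39). The HS (−)/NS (−) ratios of both Co2 and Atp6 were below 1 without centring (log2 −0.07 and −0.08) and with 50 added to each signal (log2 −0.02 and −0.02), and above 1 without background subtraction (log2 0.52 and 0.51) and with normexp and loess (log2 0.33 and 0.62). With local background the value of Atp6 was 0.36 and that of Co2 0.07, so their likeness held only under some settings.

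Atp8, a small subunit of the same membrane part, read 42871 in NS (−) and 45801 in HS (−) on array 1, and 49048 in HS (−) and 40262 in HS (ch+) on array 2. Its HS (ch+)/HS (−) ratio was 0.632-fold (log2 −0.66, −4.14 SD), the lowest of the 6 under the main processing; with local background that of Cytb was lowest (log2 −0.59, against −0.36 for Atp8), as it was with normexp and loess (−0.97 against −0.73). In HS (−) relative to NS (−) it was 1.20-fold (log2 0.26, 1.66 SD), and in HS (ch+) relative to NS (−) 0.759-fold (log2 −0.40).

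**Figure D2:**
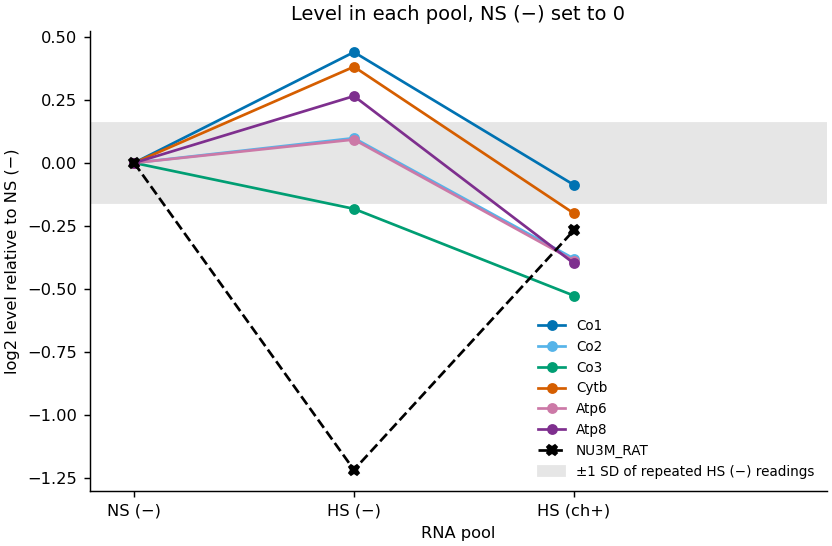
Centred log2 level of each gene in the 3 pools relative to NS (−), which is set to 0, with 1 line per gene and single readings without error bars; the grey band is 1 SD (0.16) of the repeated HS (−) readings on each side of 0. Co1, Cytb and Atp8 lie above the band in HS (−), Co3 lies just below it, and every gene except Co1 lies below it in HS (ch+). The HS (ch+) points combine both arrays, and the band does not measure their spread.

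The comparison of HS (−) with NS (−) asked which genes differed between failing and control hearts. Of the 6 genes, 5 had a centred log2 value above 0 and 1 below, and the values spread over 0.62 on the log2 scale, with an SD of 0.23 among the genes. Co1, Cytb and Atp8 were over 1 SD of the repeated reading above 0, as were 30.8% of the genes tested, and Co3 was over 1 SD below, as were 37.3%. Among the 40 other genes with a blank-subtracted signal of at least 10000 in all 4 readings, called bright genes below, these shares were 30% and 50%. The 6 genes had a median log2 of 0.18, beside −0.03 over all genes tested, and they lay between percentiles 35.4 (Co3) and 86.5 (Co1) of those genes. The study's limit of a ratio under 0.5 was met by 0 of the 6, where 1.38% of the genes tested (57 of 4127) met it, and a ratio over 2 was met by 0 of the 6, against a background of 4.17%.

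The comparison of HS (ch+) with HS (−) asked which genes differed with chaetocin on the same diet. All 6 genes were more than 2 SD of the repeated reading below 0, as were 11% of the genes tested and 30% of the bright genes. Their median log2 was −0.50, beside 0.02 over all genes tested, and they lay between percentiles 2.37 (Atp8) and 9.79 (Co3). The spread among the 6 was smaller than on array 1, with an SD of 0.11 on the log2 scale. A ratio over 1.4, the limit of the study, was met by 0 of the 6 and by 5.86% of the genes tested. A ratio under 0.714, the same distance in the other direction, was met by Co1, Cytb and Atp8, or 3 of 6, against 4.6% of the genes tested (190 of 4127). Atp6 at 0.717 and Co2 at 0.718 lay just outside that limit. The count under the limit was 0 without centring, where 1.5% of the genes tested met it, 6 without background subtraction, where 15.3% met it, and 1 with the local background subtracted, where 4.97% met it.

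The ratio of HS (ch+) to NS (−) was formed by multiplying both ratios. The HS (−) pool is common to both, but its 2 readings and the centring of both arrays remain in the product. It is therefore not a ratio of the 2 Cy3 readings alone. For Co3 the Cy3 signals were 46551 in NS (−) and 46455 in HS (ch+), while its HS (−) readings differed by a log2 of 0.31. All 6 genes had a value below 0, as did 52.5% of the genes tested and 87.5% of the bright genes, with a median log2 of −0.38 (0.767-fold) beside −0.29 over the bright genes. Co2, Co3, Atp6 and Atp8 were more than 2 SD below, as were 10.2% of the genes tested and 40% of the bright genes. That SD is the spread of the difference between the HS (−) readings. The product of both ratios contains that difference among others, so its own technical spread was not measured. None of the 6 had a ratio under 0.5, which 0.145% of the genes tested had, and none had a ratio over 2, which 2.59% had. With Aquantile normalization between the arrays the median was −0.03, and with loess it was −0.13, so the size of this value rested on the normalization.

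Centring had a large part in these values. The median log2 of Cy3 over Cy5 subtracted from every gene was 0.17 on array 1 and 0.38 on array 2. Without it the HS (−)/NS (−) median of the 6 genes was 0.01, with 3 genes above and 3 below 0, and the HS (ch+)/HS (−) median was −0.13, with 5 genes below 0. The 6 genes were thus lower in HS (ch+) relative to the median gene of array 2, while the readings of their own spots differed less between its dyes.

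Other bright genes were set beside the 6 for this reason. The 40 bright genes also had a low HS (ch+)/HS (−) ratio, with a median log2 of −0.15, 31 of them below 0 and 17.5% (7 of 40) under a ratio of 0.714. In the 4 classes of genes below that brightness the median lay between 0.01 and 0.06. The 40 genes were not matched to the 6 in brightness, and only 2 of them exceeded the second gain in all 4 readings, as each of the 6 did. They include NU3M_RAT and Myh6, which are described below. Relative to the median of the 40 bright genes, the 6 genes were below 0 in HS (ch+)/HS (−), from −0.20 for Co3 to −0.52 for Atp8. In HS (−)/NS (−) they lay between −0.03 for Co3 and 0.59 for Co1 on that scale, and in HS (ch+)/NS (−) they lay on both sides of 0, from −0.24 for Co3 to 0.20 for Co1. This second centring was chosen after the data had been seen, and why bright spots ran lower on array 2 was not tested.

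**Figure D3:**
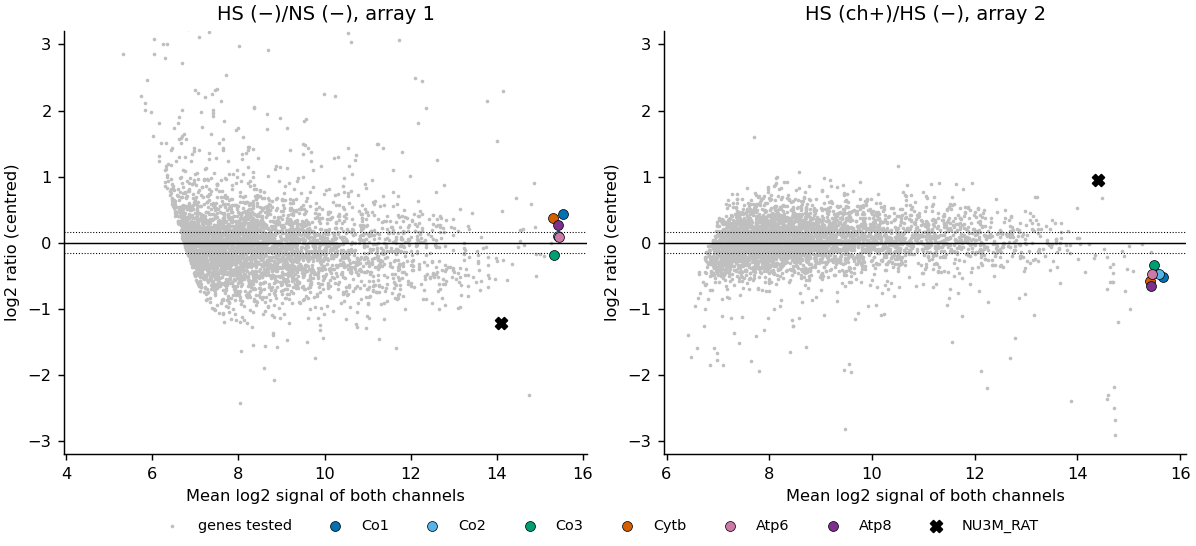
Centred log2 ratio of each of the 4127 genes tested (grey) against the mean log2 signal of both channels, for array 1 (left) and array 2 (right), with the 6 genes in color and NU3M_RAT as a cross; dotted lines mark 1 SD (0.16) of the repeated HS (−) readings, and 29 genes beyond the axis of array 1 are not drawn. The 6 genes stand at the bright end of both panels, on both sides of 0 on array 1 and all below 0 on array 2.

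Besides the 6 genes, 2 others exceeded the second gain in all 4 readings, and neither has a name here. ENSRNOG00000029707 had ratios of 1.22 in HS (−)/NS (−) and 0.652 in HS (ch+)/HS (−), inside the range of the 6. ENSRNOG00000030644 had ratios of 0.994 and 0.911, and the second lies above that of every one of the 6.

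NU3M_RAT (ENSRNOG00000033615), subunit 3 of NADH dehydrogenase (complex I), is also encoded in the mitochondrial genome, where it lies next to Co3, and it differed from the 6 genes in both ratios. It read 28398 in NS (−) and 10884 in HS (−) on array 1, and 13640 in HS (−) and 34161 in HS (ch+) on array 2. Unlike the readings of the 6, only that in HS (ch+) exceeded what the second gain could record (34151 units), and only just. Its array 2 ratio thus sets a reading above that limit against one below it. Its HS (−)/NS (−) ratio was 0.431 (log2 −1.22) and its HS (ch+)/HS (−) ratio 1.93 (log2 0.95), both far outside the range of the 6. In HS (ch+) relative to NS (−) it was 0.831-fold (log2 −0.27), inside their range. NU3M_RAT is known by name through the study's list of 50 genes, which was selected on these arrays for a low HS (−)/NS (−) and a high HS (ch+)/HS (−) ratio, so its direction is given as a description. It does not stand for the other mitochondrially encoded subunits of complex I, which were not identified here. Its spot lies in printed block 1 of the array, as do those of Ppa2, Lrp16, Eno3, Cd74, Tardbp and LOC690825 from that list. None of the 6 genes lies in that block. Between the arrays, the HS (−) readings of these block 1 genes differed by a log2 of 0.33 (NU3M_RAT) to 0.79 (Ppa2). The median over all genes tested was 0.15. Whether position on the array contributed to these ratios was not tested.

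The nuclear genes that the same list marks with the GO term mitochondrion were low in HS (−)/NS (−) and high in HS (ch+)/HS (−), as their selection required. All of the 6 genes stood on the opposite side in HS (ch+)/HS (−). In HS (−)/NS (−) Co3, at 0.882, was on the same side as the nuclear genes. These 13 genes had HS (−)/NS (−) ratios from 0.268 to 0.497 and HS (ch+)/HS (−) ratios from 1.4 to 1.96. Examples are Pdp2, a phosphatase that activates pyruvate dehydrogenase (0.268 and 1.89), the mitochondrial pyrophosphatase Ppa2 (0.414 and 1.96), the complex I Fe-S protein 8 gene (0.486 and 1.54) and the sulfite oxidase Suox (0.497 and 1.503). Neither range overlapped that of the 6 mitochondrially encoded genes, which the selection limits fixed for any genes outside them. Of the genes tested, 1.38% had an HS (−)/NS (−) ratio under 0.5 and 5.86% an HS (ch+)/HS (−) ratio over 1.4. In HS (ch+) relative to NS (−), the product of both ratios, the 13 genes had a median ratio of 0.706, with a range of 0.508 to 0.813, which overlapped the 0.695 to 0.942 of the 6 genes.

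**Figure D4:**
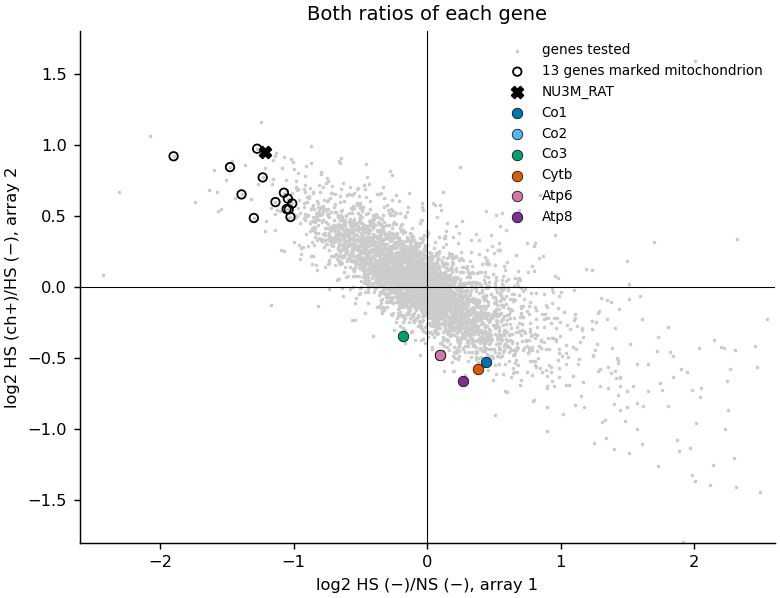
Centred log2 HS (−)/NS (−) ratio of array 1 (horizontal) against log2 HS (ch+)/HS (−) ratio of array 2 (vertical) for all genes tested (grey), the 6 genes (color), the 13 genes marked mitochondrion (open circles) and NU3M_RAT (cross), with 43 genes beyond the axes not drawn; the points share the HS (−) pool, which enters the axes with opposite sign. The 6 genes lie below the horizontal line and near the vertical line, within the lower part of the grey points, and NU3M_RAT lies among the open circles.

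Genes with a like pattern were sought by the distance in the plane of both log2 ratios from the median of the 6 genes. The nearest were ENSRNOG00000004707, at a distance of 0.018 with ratios of 1.14 and 0.713, and ENSRNOG00000036698, at 0.027 with ratios of 1.16 and 0.706. Both were dim, with HS (−) signals of 102 and 288 on array 1. The 6 genes themselves lay 0.087 to 0.40 from their median, and 736 other genes (17.9%) lay as near as the farthest of them. Among the 50 named genes the nearest were Mrpl19 (1.56), Ppp1r14c (1.57) and the gene of thioesterase superfamily member 2 (1.61). These genes had been selected on the same ratios, in the opposite direction, which fixed a large distance beforehand.

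As a check of the tissue, Myh6, the alpha myosin heavy chain of cardiac muscle, gave a signal above background in all 4 channels. It was saturated in NS (−) and read 11813 in HS (−) on array 1, for a ratio of at most 0.202, and it read 15994 in HS (−) and 33041 in HS (ch+) on array 2, for a ratio of 1.59. Myh6 also belongs to the list of 50 genes, and its direction is a description. After centring it was opposite to that of Co1, Co2, Cytb, Atp6 and Atp8 in both comparisons. Co2 and Atp6 lay within 1 SD of 0 in HS (−)/NS (−), and Co3 was opposite only in HS (ch+)/HS (−). Markers of other cell types were not analysed here, and in whole LV tissue fewer cells of a type and less RNA per cell cannot be told apart.

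**Figure D5:**
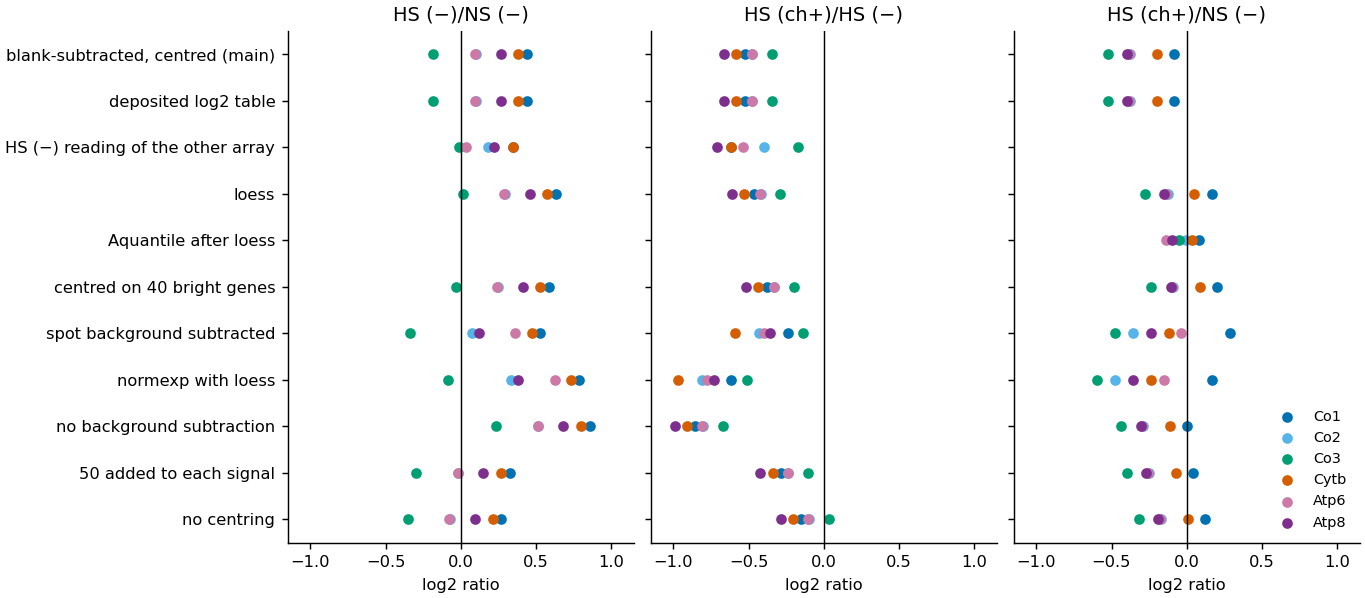
Log2 ratios of the 6 genes (colors) in the 3 comparisons under the main processing and each alternative (rows); no point is drawn where a setting does not apply to a comparison. In HS (ch+)/HS (−) the points lie below 0 under every setting, except Co3 without centring at 0.03, whereas in the other comparisons points lie on both sides of 0.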

How the data were processed

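LV RNA pools were hybridized to 2 two-color arrays. The authors deposited the median intensity of each spot at both wavelengths with the background beside it, combined from scans at 3 gains and not normalized, and a table of log2 values per gene; these were found to be log2 Cy3/Cy5 ratios, as the steps below gave the same 12674 and 13639 genes within 2.7e-05. In the recalculation, 4553 blank spots gave a mean, trimmed by 5% at each end, that was subtracted, spots within 2 SD of it in either channel were left out, and each array was centred on the median over genes and 521 quality control spots. Background shares were taken over 4127 genes that had both ratios and an HS (−) reading of 100 or more on each array. The number of arrays limits the precision, and 2 genes were saturated on array 1.

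Alternatives were local background, normexp (offset 50), loess and Aquantile in limma 3.58.1 (R 4.3.3), no subtraction, no centring, 50 added, the deposited table and the exchange of HS (−) readings. Calculations used Python 3.11.15, numpy 2.4.6, pandas 2.3.3 and matplotlib 3.10.9, and were tested on simulated arrays. Named genes were the 6 genes, NU3M_RAT, Myh6, 4 of the 13 genes marked mitochondrion, and the nearest genes by distance; the genes above the second gain were chosen after their values were seen. The genes and lists were chosen with earlier results of these data known. Sources do not give the preparation of the combined intensity, and the labels are taken to mean that both Cy5 channels held the same pool.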

Additional observations from a re-analysis of the deposited data

How the results depend on the processing

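The medians of the 6 genes kept their direction under all 9 alternatives in each of the 3 comparisons, while their sizes moved by over 1 SD of the HS (−) repeat under several. The deposited table, counted among the 9, repeats the main values and so could not differ. In HS (−)/NS (−) the median log2 of 0.18 became 0.60 without background subtraction, 0.50 with normexp and loess, 0.38 with loess and 0.013 without centring. In HS (ch+)/HS (−) the median of −0.50 became −0.83 without background subtraction, −0.75 with normexp and loess, −0.26 with 50 added and −0.13 without centring. In HS (ch+)/NS (−) the median of −0.38 became −0.18 with local background, −0.13 with loess, −0.17 without centring, −0.029 with Aquantile and −0.093 when centred on the 40 bright genes. The count of 3 genes under a ratio of 0.714 became 6 without background subtraction or with normexp and loess, 1 with local background or centred on the bright genes, and 0 without centring or with 50 added. The shares of all genes past a limit moved as well: from 1.38% to between 0.315% and 5.12% for HS (−)/NS (−) under 0.5, from 4.6% to between 1.5% and 15.3% for HS (ch+)/HS (−) under 0.714, from 5.86% to between 0.63% and 37.4% over 1.4, from 0.145% to between 0.0485% and 1.43% for HS (ch+)/NS (−) under 0.5, and from 2.59% to up to 5.68% over 2.

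Single genes changed sign as follows. Co3 turned to 0.24 (no background subtraction) and 0.012 (loess) in HS (−)/NS (−) and to 0.033 (no centring) in HS (ch+)/HS (−). Cytb turned in HS (ch+)/NS (−) to 0.046 (loess), 0.0083 (no centring), 0.036 (Aquantile) and 0.090 (bright genes). Co2 and Atp6 changed in HS (−)/NS (−) without centring (−0.070 and −0.076) and with 50 added (−0.016 and −0.022). Co1 changed in HS (ch+)/NS (−) under 8 of 9 settings, to at most 0.29 (local background). Of 54 values per comparison, those of the deposited table included, 6, 1 and 12 changed sign in all. The causes were not tested. Other scanner gains were not run, since the files hold 1 combined value per spot, and saturated spots needed no removal among the 6. No paired analysis was possible because each comparison has 1 array, and no replicate could be left out.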
